A study of Mus musculus with 6 samples.

Results

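The genes described here build the parts of the heart muscle sarcomere other than the myosin chains: the actin-based thin filament, the Z-disc that anchors it, titin and the M-band that centre the thick filament, and the proteins that tie these structures to the cell. They were chosen by name, as a list of 46 genes of the 28909 gene names on the array, and every probe carrying 1 of these names was kept. This gave 66 probes on 75 spots. Where a gene had several probes, the one with the highest mean signal over the 6 arrays was its main probe. Total RNA labelled as cardiac muscle of male C57BL/6 mice was compared between 3 sham mice and 3 mice that had been tail-suspended for 28 days, with 1 heart each. Tail-suspension is a model in which the hindlimbs are lifted off the floor by the tail to simulate microgravity. The series gives 3 mice per group, so each array stands for 1 mouse. Sham mice were housed in the same space under the same feeding conditions and were not suspended. The labels name no transgene and no drug in either group. By the labels the mice were 10 weeks old when suspension began, although the age field of every sample says 11 weeks. The labels do not name the chambers that were taken. In whole tissue, fewer cells of a type and less RNA per cell cannot be told apart.

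In a sarcomere, myosin pulls on thin filaments of actin that are decorated with tropomyosin and the troponin complex, which opens the filament to myosin when calcium binds. The thin filaments end in the Z-disc, where alpha-actinin crosslinks them and where titin, the giant elastic protein that spans to the M-band, is also anchored. Desmin filaments link neighbouring Z-discs to each other and to the membrane, and several LIM and ankyrin repeat proteins sit at the Z-disc or the titin spring and change in amount when heart muscle is stretched or unloaded. Several of these proteins come as paralogs, of which 1 predominates in the adult heart and another in the developing heart or in skeletal muscle.

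Levels are given throughout as the log2 of the processed intensity relative to the 75th percentile of the array, so that a level of 0 is that percentile and a difference of 1 is a 2-fold change. They compare arrays at 1 probe and not probes with each other. The 75th percentile lay between 302 and 376 intensity units, each array had 50.9% to 53.4% of its probes well above background, no spot was saturated, and all 6 arrays lay on 1 slide. Correlations across probes lay between 0.991 and 0.996 within groups and between 0.978 and 0.984 across groups. Of the 46 main probes, 44 were well above background on all 6 arrays. Mybphl was so on the 3 tail-suspension arrays alone and passed the filter on dim probes through that group. Actn3, the alpha-actinin of fast skeletal muscle, was not well above background on any array and was not tested.

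Tail-suspended mouse hearts had higher levels of 7 and lower levels of 5 of the 45 tested genes at an adjusted p of 0.05 (limma with Benjamini-Hochberg adjustment over all tested probes). Over all 17137 tested genes, 21.2% were called, 10.6% higher and 10.5% lower, so that 12 of 45 is close to the share on the whole array, and no test was made of this count. Counted over the 62 tested probes of these genes, 7 were higher and 5 lower, against 10.8% and 9.57% of all tested probes. At a 2-fold minimum 1 gene was higher and 0 were lower, against 2.74% and 1.83% of all genes. By the methods' t-test 10 genes were higher and 9 lower without adjustment, against 36.1% of all genes in either direction, and 4 and 4 after Benjamini-Hochberg adjustment, against 10.9%. Higher were Mybphl, Ankrd1, Des, Myot, Pdlim3, Myom3 and Myom2, and lower were Lmod3, Tnnt1, Tpm4, Fhl2 and Actc1. With only the 44 genes above background on all 6 arrays tested, which leaves Mybphl out, 6 were higher and 5 lower. A fit blocked on slide row called 0 genes in either direction (limma, smallest adjusted p = 0.0669), and its values are given with the position of the arrays. None of the 12 had overlapping groups. Another 12 genes did not pass the test although their groups did not overlap, 4 of them above and 8 below sham. Groups without overlap were found at 46.5% of all tested genes, 22.3% above and 24.2% below sham. The median log2 fold change of the 45 genes was -0.04, against -0.01 for all tested genes, and it was 0.03 under the normexp background correction. Of the 33 genes that were not called, 30 had a 95% interval within 2-fold in either direction and 19 an interval within 0.5 on the log2 scale.

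**Figure D1:**
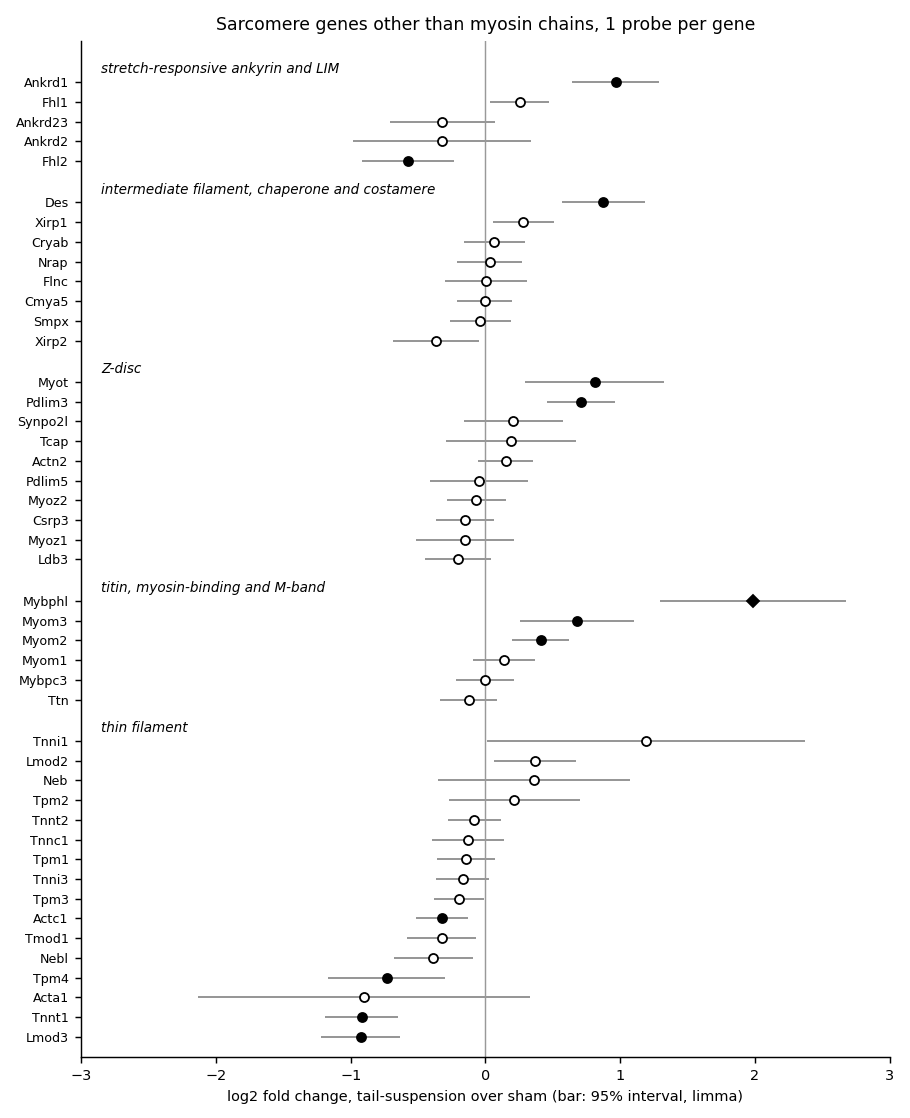
Log2 fold change of each tested gene, tail-suspension over sham (horizontal axis), grouped by role, with the 95% interval from limma as a bar. Filled symbols passed the adjusted threshold and open circles did not. The diamond is Mybphl, which was not well above background in sham hearts. The 4 filled symbols of the thin filament lie left of 0 and the filled symbols of the titin and M-band group, the Z-disc group and the desmin group lie right of it.

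By role, 4 of 16 thin filament genes were lower and 0 were higher, with a median log2 fold change of -0.18, where 10.5% of all tested genes were lower and 10.6% higher. Of 6 titin, myosin-binding and M-band genes, 3 were higher, Mybphl among them, and 0 lower, with a median of 0.27. Of 10 tested Z-disc genes, 2 were higher and 0 lower (median 0.05), and of 8 genes of intermediate filaments, chaperones and costameres, 1 was higher and 0 lower (median 0.02). Of 5 stretch-responsive ankyrin repeat and LIM genes, 1 was higher and 1 lower (median -0.32). The roles were assigned with earlier results of these data known, the groups are small, and no test was made between them or against all genes, so the split is a description.

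Lmod3 had the largest fall. It encodes leiomodin 3, which helps actin filaments to form and sets the length of thin filaments. Its probe (chr6:97188607-97188666 of mm9, minus strand) read 5.94, 5.85 and 5.90 in the sham hearts and 5.21, 4.92 and 4.79 in the tail-suspended hearts. The sham hearts lay within 0.05 (SD, n = 3) of their mean of 5.90, and every tail-suspended heart lay below them, at 4.97 ± 0.21 (SD, n = 3). Lmod3 fell by 0.93 on the log2 scale (SE 0.12, adjusted p = 0.00664, limma).

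Tnnt1 encodes the slow skeletal troponin T, the troponin subunit that binds tropomyosin, whereas Tnnt2 encodes the form that predominates in the heart. At the Tnnt1 probe (chr7:4456265-4456324 of mm9, minus strand) the sham hearts read 4.48, 4.36 and 4.40 and the tail-suspended hearts 3.49, 3.68 and 3.31. The gap between the groups was wider than the range within either, and the log2 fold change was -0.92 (SE 0.11, adjusted p = 0.00564). At Tnnt2 the values were 9.39, 9.35 and 9.26 in sham hearts and 9.20, 9.27 and 9.27 in tail-suspended hearts. These overlapped, with a log2 fold change of -0.09 (SE 0.08, adjusted p = 0.484).

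Tpm4 encodes a tropomyosin of non-muscle and developing muscle cells. Its levels were 4.27, 4.52 and 4.89 in sham and 3.98, 3.60 and 3.90 in tail-suspended hearts (chr8:74676891-74676950 of mm9, plus strand). The sham hearts were the more spread and all lay above the tail-suspended ones, and Tpm4 fell by 0.73 on the log2 scale (SE 0.18, adjusted p = 0.0361). The call was lost when any array other than sham replicate 1 was left out (-0.81 to -0.57, adjusted p = 0.0637 to 0.104). Of the 5 smooth muscle markers, which are expressed in vessel walls where non-muscle and smooth muscle tropomyosins also occur, Smtn was lower (-0.56), while Cnn1 (0.64), Myh11 (0.51, without overlap), Tagln (0.36) and Acta2 (0.19) were not called. The summed level of the 5 relative to the 75th percentile was 116.5 to 147 in sham and 97.8 to 136 in tail-suspended hearts. Their part in the result was not tested.

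Actc1 encodes cardiac alpha-actin, the actin of the adult heart's thin filament. Its probe (chr2:113873064-113873123 of mm9, minus strand) gave 10.04, 10.03 and 9.99 in sham hearts and 9.76, 9.69 and 9.64 in tail-suspended hearts. Both groups were tight and did not overlap, and Actc1 was lower by a small amount, with a log2 fold change of -0.33 (SE 0.08, adjusted p = 0.0364). This was the smallest change called among the genes described here, and it depended on the scaling of the arrays. The log2 fold change was -0.07 (adjusted p = 0.522) with the authors' log2 values and -0.19 (adjusted p = 0.335) under quantile normalization. It also missed the threshold when any 1 of the 6 arrays was left out (-0.36 to -0.30, adjusted p = 0.0604 to 0.121).

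The troponin and tropomyosin genes that predominate in the adult heart were not called. Tnni3, the cardiac inhibitory troponin subunit, read 8.65, 8.64 and 8.52 in sham and 8.41, 8.42 and 8.47 in tail-suspended hearts. The groups did not overlap, but the difference was only -0.17 (SE 0.08, adjusted p = 0.182). Tpm1, the main tropomyosin of heart muscle, read 9.81 in each of the 3 sham hearts and 9.70, 9.75 and 9.54 in the tail-suspended hearts, a difference of -0.15 (SE 0.09, adjusted p = 0.28). Before scaling, the intensities of Tnni3 and of Tpm1 overlapped between the groups. Tnnc1, the calcium-binding troponin subunit of heart and slow muscle, overlapped between the groups after scaling. It read 7.67, 7.84 and 7.59 in sham and 7.72, 7.47 and 7.52 in tail-suspended hearts. The 95% intervals of the log2 fold changes of Tnnt2, Tnni3, Tpm1 and Tnnc1 together ran from -0.39 to 0.13, so at these 4 probes a change as large as that of Tnnt1 lies outside the interval.

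Some thin filament genes varied too much between arrays for a call, and the following pair is named after its values were seen. Acta1 encodes skeletal alpha-actin, which the mouse heart expresses mainly before and around birth. Its values were 4.09, 6.06 and 4.70 in sham hearts and 4.57, 3.50 and 4.08 in tail-suspended hearts. Sham replicate 2 was high, the groups overlapped, and the log2 fold change of -0.90 had an SE of 0.52 (adjusted p = 0.245). Without that array it was -0.35. Tnni1, the slow skeletal inhibitory troponin subunit, which precedes Tnni3 in development, read -4.28, -3.39 and -3.83 in sham and -1.81, -3.75 and -2.36 in tail-suspended hearts. Tail-suspension replicates 1 and 3 were above all sham hearts and replicate 2 was among them. The log2 fold change was 1.19 (SE 0.49, adjusted p = 0.129). With 1 array left out it was 0.78 to 1.75, the highest without tail-suspension replicate 2 (adjusted p = 0.0175). The Tnni1 probe was dim, with sham replicate 1 near the lowest level well above background on its array (-4.48). Over the alternatives of processing its log2 fold change ran from 0.31 to 2.02.

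**Figure D2:**
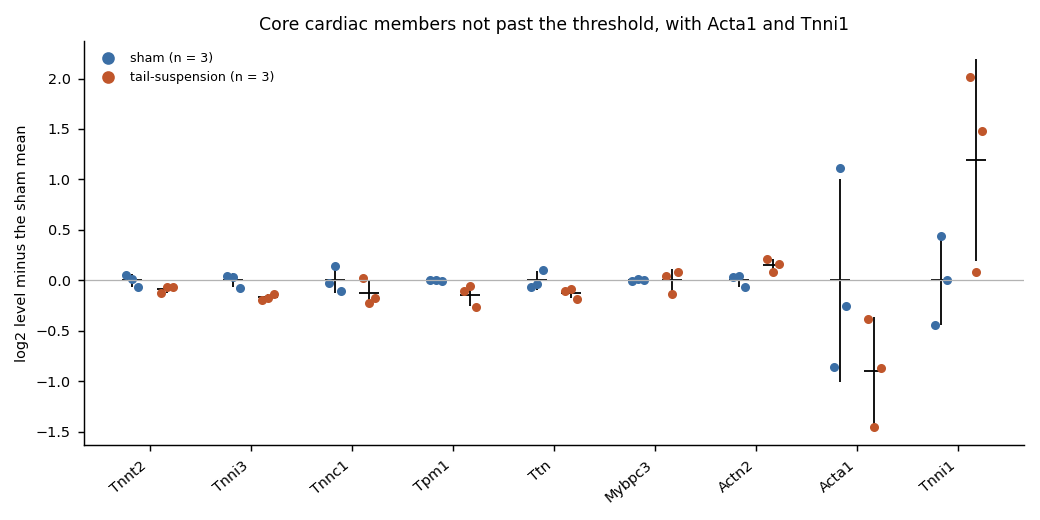
Level of each array minus the mean of the sham arrays (vertical axis, log2 units) for the main adult cardiac genes that were not called and for Acta1 and Tnni1; dots are arrays, with the mean as a horizontal line and the SD as a vertical bar, n = 3 per group. The cardiac genes lie close to 0 in both groups, whereas Acta1 and Tnni1 spread over more than 1 unit.

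The other thin filament genes lay between -0.39 and 0.36 and were not called. Nebl, which encodes the cardiac relative of nebulin, was at -0.39 (adjusted p = 0.0667, but 0.0378 under quantile normalization and 0.0372 with the authors' log2 values), Tmod1, which caps the pointed end of actin filaments, at -0.33 (adjusted p = 0.0751) and Tpm3 at -0.20 (adjusted p = 0.113), each without overlap and below sham. Lmod2, the leiomodin of the adult heart, was at 0.36 (adjusted p = 0.0868) without overlap and above sham. Neb, the thin filament ruler of skeletal muscle, was at 0.36 and Tpm2 at 0.22, both with overlap. At Neb, tail-suspension replicate 1 read -2.49, below all sham hearts. Replicates 2 and 3 read -1.35 and -1.43, above all of them. The log2 fold change of Neb was 0.16 to 0.73 with 1 array left out and -0.37 with the slide row as a block. Its highest value (adjusted p = 0.0242) came without tail-suspension replicate 1, the array that went the other way.

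Mybphl was read at a very dim probe, so that its size and its place among the other genes are not settled. It encodes a relative of myosin-binding protein H that is known mainly from the atria. The 60 bases of its probe, at chr3:108178294-108178353 of mm9 on the plus strand, are shown because the whole value rests on this sequence.
Mybphl probe: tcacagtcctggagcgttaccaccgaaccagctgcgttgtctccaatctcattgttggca
The levels were -5.53, -5.56 and -4.55 in sham hearts, where the probe was not well above background on any array, and -3.27, -3.45 and -2.97 in tail-suspended hearts, where it was on all 3. The group means were -5.21 and -3.23, and the probe passed the test (adjusted p = 0.00852). Since the sham level is known only as a bound, each sham array was also held at its lowest signal well above background over all probes. On means of normalized log2 values, Mybphl was then 2.22-fold higher in tail-suspended hearts. This value carries no error and depends on the background correction, so it is not a strict minimum. The call was lost under the normexp background correction (log2 fold change 0.25, adjusted p = 0.221). Among 5 atrial markers, Bmp10 was not well above background on any array, and Myl7 and Sln were on 1 array of each group. Nppa read 6.61, 7.64 and 7.25 in sham and 9.08, 7.46 and 9.31 in tail-suspended hearts and Myl4 1.09, 1.62 and 1.92 against 1.54, 0.33 and 0.88, and neither was called. The summed level of the 5 was 99.8 to 203 times the 75th percentile in sham and 178 to 636 times in tail-suspended hearts, and its part in the Mybphl value was not tested.

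Myomesins crosslink the thick filaments in the M-band. Myom2, the M-protein of fast and adult cardiac muscle, read 8.99, 9.05 and 8.89 in sham and 9.42, 9.31 and 9.43 in tail-suspended hearts (chr8:15133322-15133381 of mm9, plus strand). The groups were tight and apart, and the log2 fold change was 0.41 (SE 0.09, adjusted p = 0.0251). Myom3, the myomesin of slow and intermediate fibres, read 0.89, 0.56 and 0.55 in sham and 1.22, 1.13 and 1.69 in tail-suspended hearts (chr4:135371377-135371436 of mm9, plus strand). It was higher by 0.68 on the log2 scale (SE 0.18, adjusted p = 0.0403). Myom1, which all striated muscle expresses, overlapped between the groups, with 6.51, 6.48 and 6.32 against 6.66, 6.56 and 6.49 and a log2 fold change of 0.14 (adjusted p = 0.341). Both calls were lost when any array but 1 was left out, the exception being tail-suspension replicate 2 in each case. Without each of the other 5 arrays Myom2 was at 0.37 to 0.45 (adjusted p = 0.0559 to 0.0864) and Myom3 at 0.51 to 0.79 (adjusted p = 0.059 to 0.130).

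Titin was read by 4 probes spread along its transcript. The probes below are shown because they are annotated to different transcripts or stretches of the gene, on the minus strand of chromosome 2 in mm9. The first is annotated to the transcript named N2-B, the shorter and stiffer cardiac form, near its 5′ end (chr2:76802542-76802601). Its label gives this annotation only, and the probe was not shown to read N2-B alone. The other 2 are annotated to the transcript named N2-A, at its bases 33226 (chr2:76655847-76655906) and 93881 (chr2:76551742-76551801).
Ttn N2-B probe: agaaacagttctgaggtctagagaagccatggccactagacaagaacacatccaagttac
Ttn N2-A probe, base 33226: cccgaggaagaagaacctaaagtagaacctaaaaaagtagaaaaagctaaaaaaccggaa
Ttn N2-A probe, base 93881: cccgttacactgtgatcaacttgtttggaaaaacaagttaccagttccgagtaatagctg
The main probe, at base 101578 of N2-A, read 7.57, 7.61 and 7.75 in sham and 7.53, 7.56 and 7.46 in tail-suspended hearts. The groups nearly met without overlap, and the log2 fold change was -0.13 (SE 0.09, adjusted p = 0.341). At the N2-B probe the hearts read 3.08, 3.30 and 3.26 against 3.08, 3.21 and 3.04, and at base 33226 1.72, 1.89 and 1.57 against 1.61, 1.70 and 1.66. All 4 probes had log2 fold changes between -0.18 and -0.07, none was called, and whether a probe also reads the other transcript was not checked. Mybpc3, the cardiac myosin-binding protein C that regulates cross-bridges, was the nearest to no difference. It read 9.25, 9.27 and 9.27 in sham and 9.31, 9.13 and 9.34 in tail-suspended hearts, with a log2 fold change of -0.00 and a 95% interval from -0.22 to 0.21.

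At the Z-disc, Pdlim3 and Myot were higher. Pdlim3 encodes a PDZ and LIM protein that binds alpha-actinin. It read 1.72, 1.90 and 2.05 in sham and 2.62, 2.59 and 2.60 in tail-suspended hearts (chr8:47004658-47004717 of mm9, plus strand). The 3 tail-suspended hearts were nearly equal and all above the sham hearts, and the log2 fold change was 0.71 (SE 0.11, adjusted p = 0.00895). Myot encodes myotilin, which binds alpha-actinin and filamin. It read 3.36, 3.72 and 2.97 in sham and 3.88, 4.38 and 4.22 in tail-suspended hearts, groups that were spread but apart, with a log2 fold change of 0.81 (SE 0.22, adjusted p = 0.0432). Its call was lost when any array other than sham replicate 2 was left out (0.62 to 0.95, adjusted p = 0.0549 to 0.118).

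Actn2, the alpha-actinin of heart muscle, read 7.27, 7.28 and 7.17 in sham and 7.45, 7.32 and 7.40 in tail-suspended hearts. These groups did not overlap, but the log2 fold change of 0.15 was not called (SE 0.09, adjusted p = 0.246). The other 7 tested Z-disc genes lay between -0.21 and 0.21 with none called: the titin cap Tcap, the muscle LIM protein Csrp3, the calsarcins Myoz1 and Myoz2, the PDZ and LIM proteins Ldb3 and Pdlim5, and Synpo2l. Csrp3 had a mean of 8.04 ± 0.01 in sham and 7.88 ± 0.11 in tail-suspended hearts (SD, n = 3 each), without overlap and not called (adjusted p = 0.255, limma). Tcap spread widely among the sham hearts, from 8.72 to 9.52.

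Des was the called gene among those of intermediate filaments, chaperones and costameres. It encodes desmin, the intermediate filament protein of muscle, and was read by 1 probe printed on 10 spots, which were averaged. The probe lies at chr1:75363404-75363629 of mm9 on the plus strand, a stretch longer than its 60 bases, so that it crosses an intron, and is shown because it gives the most repeated measurement among the genes described here.
Des probe: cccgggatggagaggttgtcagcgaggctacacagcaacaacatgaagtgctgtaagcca
The levels were 5.34, 5.38 and 5.02 in sham hearts and 6.01, 6.09 and 6.26 in tail-suspended hearts. Every tail-suspended heart lay above every sham heart, with means of 5.25 ± 0.20 and 6.12 ± 0.13 (SD, n = 3 each). Des was 1.83-fold higher (log2 fold change 0.87, SE 0.13, adjusted p = 0.00883, limma). The other genes of the group did not pass. Cryab, the small heat shock protein that protects desmin, was at 0.07 (adjusted p = 0.647), Flnc, the filamin of muscle, at 0.00, and Nrap, Cmya5 and Smpx between -0.04 and 0.03. The actin-binding Xin proteins of the intercalated disc moved apart without a call, Xirp1 at 0.28 (adjusted p = 0.0771) and Xirp2 at -0.37 (adjusted p = 0.095), neither with overlap.

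Ankrd1 and Fhl2 were called in opposite directions. Ankrd1 encodes the cardiac ankyrin repeat protein, which binds the titin spring and also acts in the nucleus. It read 6.34, 6.76 and 6.61 in sham and 7.64, 7.58 and 7.39 in tail-suspended hearts (chr19:36186809-36186868 of mm9, minus strand). The gap between the groups exceeded the range within either, and Ankrd1 was 1.95-fold higher (log2 fold change 0.97, SE 0.13, adjusted p = 0.00765). Fhl2 encodes a LIM protein that binds titin and tethers metabolic enzymes to it. It read 8.82, 8.80 and 8.76 in sham and 8.41, 7.91 and 8.33 in tail-suspended hearts (chr1:43179994-43180053 of mm9, minus strand). Fhl2 fell by 0.58 on the log2 scale (SE 0.14, adjusted p = 0.0357), with tail-suspension replicate 2 the lowest. Its call was lost without any 1 of the 3 sham arrays or without tail-suspension replicate 3 (-0.63 to -0.56, adjusted p = 0.0721 to 0.111). The other members of the ankyrin repeat family, Ankrd2 and Ankrd23, were both at -0.32 with overlap, and Fhl1 was at 0.25 (adjusted p = 0.092) without overlap.

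**Figure D3:**
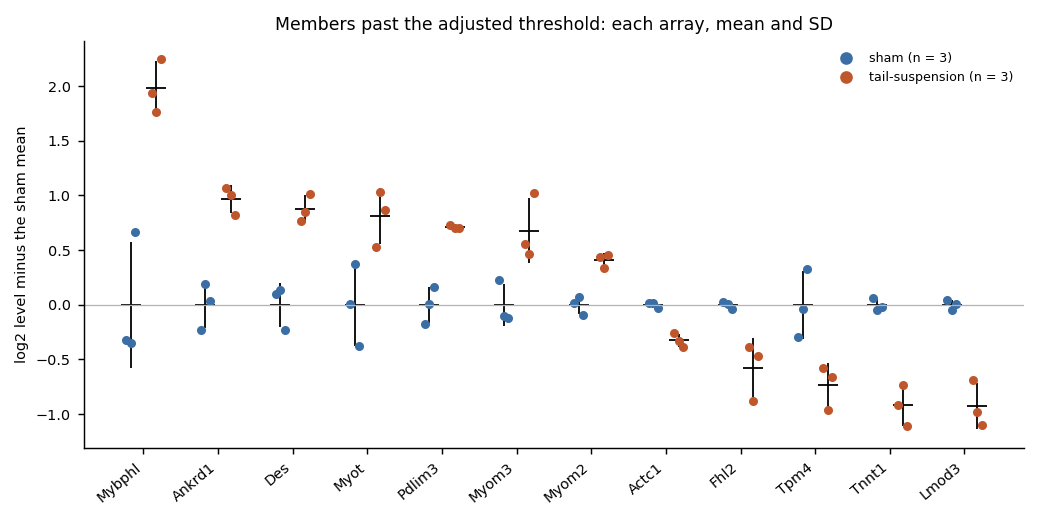
Level of each array minus the mean of the sham arrays (vertical axis, log2 units) for the 12 genes past the adjusted threshold; dots are arrays, with the mean as a horizontal line and the SD as a vertical bar, n = 3 per group. In each gene the 3 tail-suspension arrays lie entirely on one side of the 3 sham arrays, and only Mybphl, at a probe below background in sham hearts, exceeds 2-fold.

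Several probes of a gene gave a further view where they existed. Of 13 genes with more than 1 probe, 11 had more than 1 that was tested, and in 8 of these the probes had the same sign. The gap between the highest and lowest log2 fold change of a gene had a median of 0.109 and ran from 0.0217 at Neb to 0.452 at Cmya5. No second probe was called, so none differed in call from its main probe, and all 12 called genes were read by 1 probe each. The 5 probes of Tpm1, which the files pair with different splice variants, lay between -0.15 and -0.05. Signs differed at Actn2, Cmya5 and Pdlim5, where each of the differing probes had a standard error that covered most of the gap.

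**Figure D4:**
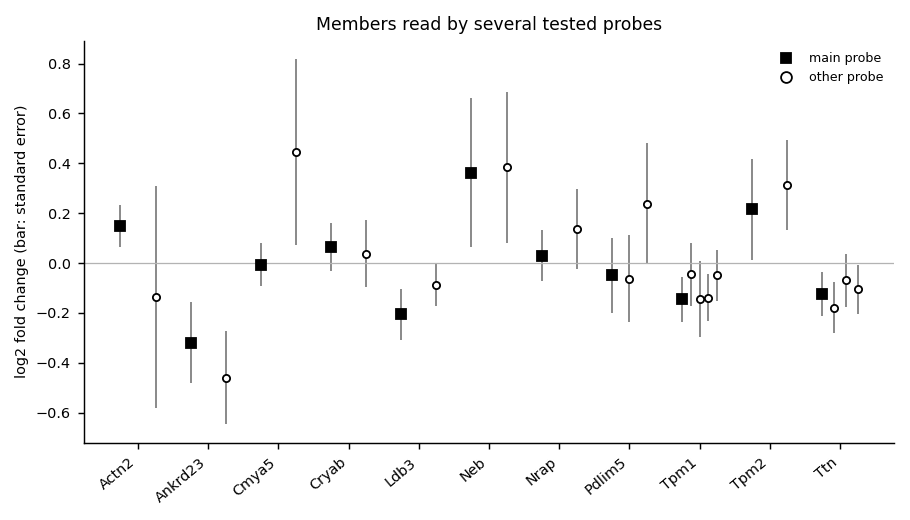
Log2 fold change (vertical axis) of every tested probe of the 11 genes with several tested probes; squares are main probes, circles the others, and bars are standard errors from limma. The probes of Ttn and Tpm1 all lie below 0 and close together, and the widest gap is at Cmya5.

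Because paralogs share roles, the change of 1 paralog relative to the other was computed within each array for 12 pairs in which both were tested. In 7 pairs the groups did not overlap. No such share was computed for pairs of other genes, and of single genes 46.5% were without overlap. Each of these had a two-sided exact permutation p of 0.1, the smallest that 3 arrays against 3 can give, and 0.171 after adjustment over the 12 pairs, so no pair could pass. Lmod3 relative to Lmod2 was lower by the widest margin, with a difference of changes of -1.29 (SE 0.20). Next was Ankrd2 relative to Ankrd1 at -1.29 (SE 0.45). The Ankrd2 probe was dim, with levels of -3.49 to -2.42, though well above background on every array, and was itself not called. Tnnt1 relative to Tnnt2 was at -0.83 (SE 0.11) and Tpm4 relative to Tpm3 at -0.54 (SE 0.19). Fhl1 relative to Fhl2 was at 0.83 (SE 0.22), Xirp1 relative to Xirp2 at 0.65 (SE 0.17) and Myom2 relative to Myom1 at 0.28 (SE 0.07). In 6 of these 7 pairs just 1 paralog was past the threshold in the fit over all probes (Lmod3, Ankrd1, Tnnt1, Tpm4, Fhl2 and Myom2), and neither Xirp gene was past it. The pairs Acta1 and Actc1, Tnni1 and Tnni3, Tpm2 and Tpm1, Neb and Nebl, and Myoz1 and Myoz2 overlapped.

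**Figure D5:**
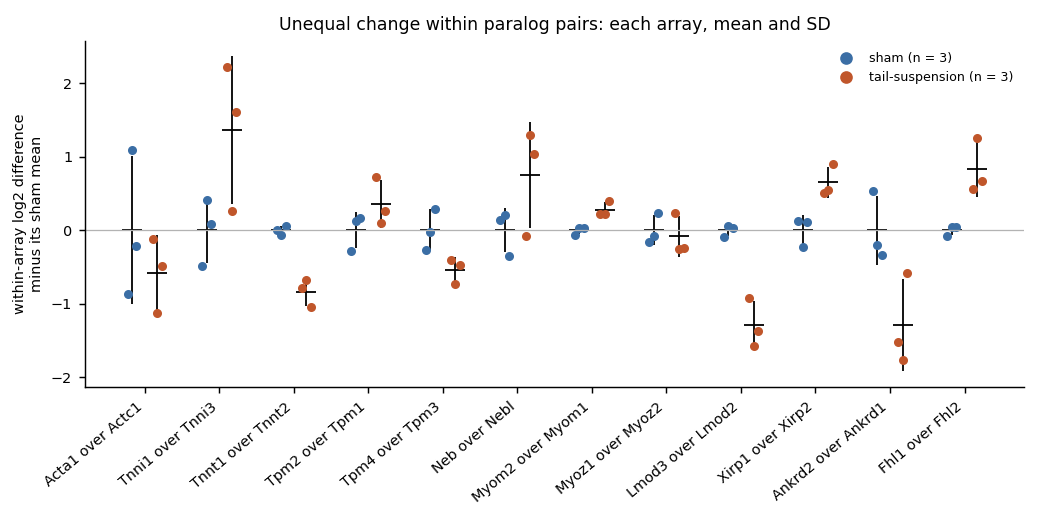
Difference between the log2 levels of 2 paralogs within each array, minus the mean of that difference over the sham arrays (vertical axis, log2 units), for 12 pairs; dots are arrays, with the mean as a horizontal line and the SD as a vertical bar, n = 3 per group. The 7 pairs without overlap include Lmod3 over Lmod2 and Tnnt1 over Tnnt2, both lower in tail-suspended hearts.

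Other genes of the sarcomere, its assembly factors and its anchors were read from a list of 45 names, of which 43 were on the array and 41 were tested. Of these, 2 were higher and 6 were lower, close to the 21.2% called over all tested genes (10.6% higher and 10.5% lower), with a median log2 fold change of -0.08. Mybpc2, the fast skeletal myosin-binding protein C, read 0.53, 1.45 and 1.30 in sham and 2.41, 2.28 and 2.31 in tail-suspended hearts, a log2 fold change of 1.24 (SE 0.24, adjusted p = 0.0178). Trim54, a RING finger protein of the MuRF family found at the Z-disc and the M-band, read 5.28, 5.17 and 4.89 against 5.68, 5.83 and 5.74 (log2 fold change 0.64, adjusted p = 0.0179). The other MuRF genes of the list overlapped and were not called. Trim63 (MuRF1) was at -0.07 (adjusted p = 0.806) and Trim55 at 0.10 (adjusted p = 0.735). The largest falls were in Capn3, a muscle protease held by titin, at -0.94 (adjusted p = 0.0231), Tmod4, a tropomodulin of skeletal muscle, at -0.78 (adjusted p = 0.0255) and Synm, which builds filaments with desmin, at -0.75 (adjusted p = 0.0243). Capn3 read 0.29, 0.24 and 0.21 in sham and -0.65, -0.31 and -1.11 in tail-suspended hearts, Tmod4 3.90, 3.85 and 3.80 against 2.96, 3.45 and 2.80, and Synm 0.22, 0.46 and 0.31 against -0.36, -0.17 and -0.74, all without overlap. Unc45b, Pdlim1 and Lims1 were the others that were lower.

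Markers of the cells in the tissue were read in the same way. All 8 cardiomyocyte markers were tested and 1 was lower (Casq2), with a median log2 fold change of -0.18. Of 8 fast skeletal muscle markers, 4 were tested and none was called, and Tnnt3 and Tnni2 are in this list as well as in the list of other sarcomere genes. The 4 not tested, Myh1, Myh2, Myh4 and Mylpf, were not well above background on any array. None of 6 fibroblast, 3 macrophage and 3 erythroid markers that were tested was called, and Kdr and Tie1 were lower among 5 endothelial markers. The fibroblast markers had a median of -0.63, with Col1a1 (-0.95), Col1a2 (-0.63) and Lum (-0.64) below sham and Dcn (0.34) above it, each without overlap. Of 4 adipocyte markers, Cfd was tested and not called, at 2.90 with overlap (adjusted p = 0.149). Tail-suspension replicate 1 read 1.02 at Cfd, where the other tail-suspended hearts read -2.45 and -1.82, and its summed level of the 4 was 2.40 against 0.06 to 0.37 in the sham hearts. The erythroid markers lay between -1.62 and -1.50, without overlap and below sham. The part of these cells in the results was not tested.

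The position on the slide was not balanced. Row 1 of the slide held every sham array together with tail-suspension replicate 1, and row 2 held the remaining 2 tail-suspended hearts. With the row as a block, which reduces the comparison to tail-suspension replicate 1 against the sham arrays of its own row, none of the 45 genes passed the adjusted threshold (limma, smallest adjusted p = 0.0669), and 10 had an unadjusted p under 0.05, of which 7 were among the 12 called without it. All 12 kept their sign, and tail-suspension replicate 1 by itself lay outside the sham range in the called direction at all 12. Both follow from the groups not overlapping at these genes, so neither tests the effect of the row. Within that row the log2 fold changes were 1.94 at Mybphl, 1.07 at Ankrd1, 0.77 at Des, 0.73 at Pdlim3, 0.44 at Myom2, -0.69 at Lmod3 and -0.92 at Tnnt1. At the other 5 they were nearer to 0 than over all arrays, with 0.53 at Myot, -0.38 at Fhl2, 0.55 at Myom3, -0.58 at Tpm4 and -0.26 at Actc1, and the unadjusted p-values were 0.0739 to 0.116 (limma). Des, Lmod3 and, by a small amount, Mybphl were also nearer to 0.

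Promoters of RefSeq transcripts, from 250 bases before to 50 bases after the start on the GRCm38.p6 assembly, were at hand for 37 of the 46 genes. They were searched on both strands for 3 motifs of muscle transcription: the CArG box bound by serum response factor, the MEF2 site, and the MCAT element (CATTCC) bound by TEAD factors. A CArG box was found for 7 of the 37 genes (18.9%), against 1.81% of all 27025 genes with a window, and a MEF2 site for 7 (18.9%), against 3.7%. The MCAT element was found for 11 (29.7%), against 16.6%. Genes with several starts have several windows and so more chances of a match. Among called genes with a window, the CArG box was found in 2 of 4 lower genes, Actc1 and Fhl2, and in 0 of 5 higher genes, and the MCAT element in 2 of 5 higher genes, Ankrd1 and Pdlim3, and in 0 of 4 lower genes. The MEF2 site was found in 1 of 5 higher genes, Myom3, and in 1 of 4 lower genes, Fhl2. These counts are too small for a comparison. Matches were also found for genes that were not called, with a CArG box in 5, a MEF2 site in 5 and an MCAT element in 9 of 28. No matches of different motifs overlapped.

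The 250 bases upstream of the start are shown for these 4 genes, in the direction of transcription, with the motif matches in capitals. Ankrd1 (chr19:36119845-36120094, minus strand) holds MCAT elements at positions -210 to -205 and -123 to -118, where -1 is the base before the start, and Pdlim3 (chr8:45885237-45885486, plus strand) holds them at -201 to -196 and -11 to -6. Actc1 (chr2:114052876-114053125, minus strand) holds a CArG box at -47 to -38. For Fhl2 the window shown (chr1:43196762-43197011, minus strand) is 1 of those with a match and holds a CArG box at -96 to -87 and a MEF2 site at -31 to -22.
Ankrd1 promoter: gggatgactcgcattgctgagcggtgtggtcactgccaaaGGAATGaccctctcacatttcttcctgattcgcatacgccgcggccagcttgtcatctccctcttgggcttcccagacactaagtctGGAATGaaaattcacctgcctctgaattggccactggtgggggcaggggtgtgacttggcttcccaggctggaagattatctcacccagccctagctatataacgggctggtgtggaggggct
Pdlim3 promoter: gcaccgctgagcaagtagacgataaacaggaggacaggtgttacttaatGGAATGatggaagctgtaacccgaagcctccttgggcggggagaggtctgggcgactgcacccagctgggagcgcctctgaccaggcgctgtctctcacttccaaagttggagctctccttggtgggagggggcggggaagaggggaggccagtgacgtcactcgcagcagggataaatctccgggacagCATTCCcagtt
Actc1 promoter: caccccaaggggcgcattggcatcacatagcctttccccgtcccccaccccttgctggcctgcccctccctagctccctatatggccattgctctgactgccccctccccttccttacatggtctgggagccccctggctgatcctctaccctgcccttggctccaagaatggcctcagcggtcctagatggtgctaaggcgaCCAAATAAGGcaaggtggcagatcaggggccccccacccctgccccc
Fhl2 promoter: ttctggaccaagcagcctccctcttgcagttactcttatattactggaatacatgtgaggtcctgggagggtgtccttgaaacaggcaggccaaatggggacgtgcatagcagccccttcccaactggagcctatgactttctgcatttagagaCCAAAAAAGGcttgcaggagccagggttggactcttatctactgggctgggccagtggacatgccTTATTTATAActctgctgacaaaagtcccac
A match names only these letters in the window, and binding was not measured.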

How the data were processed

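Gene expression was measured on 1-colour (Cy3) Agilent mouse arrays in 3 sham and 3 tail-suspended hearts. The authors scanned the arrays and deposited the output of Agilent Feature Extraction 10.7.1.1 for each, whose processed intensity is background-corrected. A deposited table of log2 values, whose columns share 1 distribution and were therefore quantile normalized by the authors, served as an alternative. Probe coordinates are those of the files (mm9), promoters those of RefSeq on GRCm38.p6, and the builds were not mixed. Whether a probe lies in coding sequence or a UTR was not checked.

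Controls were dropped, and each array's 75th percentile over the remaining spots was subtracted from its log2 processed intensities. Outlier-flagged spots were then dropped, and repeated spots of a probe were averaged. Calling a probe well above background required the flag of Feature Extraction on 50% or more of its spots. The 28032 probes above background on all arrays of 1 group or both were compared in R 4.3.3 by the moderated test of limma 3.58.1 on all 6 arrays without covariates (lmFit, eBayes), and p was adjusted by Benjamini-Hochberg (threshold 0.05). Single values were compared with exact permutation tests. The steps were tested on simulated data. The number of arrays limits the precision.

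The genes, roles and lists were chosen with earlier results of these data known. Values of every array are given for called genes without overlap (up to 10 in each direction), genes whose probes differed in call, and the main adult cardiac genes, and for the 3 largest changes in each direction among other sarcomere genes. Acta1, Tnni1, Csrp3, Myom1 and Neb were added after their values were seen. Alternatives were normexp background correction (offset 50), the authors' log2 values, quantile normalization, the 75th percentile taken over detected probes, a strict filter or none, retained outlier spots, array weights, eBayes with a robust intensity trend, the replicate number or the slide row as a block, the methods' t-test, other probes of a gene, a 2-fold minimum, and leaving out each array.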

Additional observations from a re-analysis of the deposited data

How the results depend on the processing

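The number of arrays and the dim probes set the limits: a call rests on 3 mice per group, and Mybphl rests on signal near background. Of 871 refits of single genes, 760 kept direction and side of the threshold, 64 lost the call, 10 gained one (in Neb, Nebl, Tmod1, Tnni1, Tpm3, Xirp1 and Xirp2) and 37 turned the sign. None of the 12 called genes turned its sign. Among these refits, Ankrd1, Des, Pdlim3, Lmod3 and Tnnt1 lost the call under the row block alone. Under a 2-fold minimum, which the refits of single genes do not include, only Mybphl kept its call. Mybphl lost it under the row block, normexp (adjusted p = 0.221) and the methods' t-test (adjusted p = 0.0513). It was not tested under the strict filter. Where a cause is not named, the cause was not tested.

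The counts of genes described here, 7 higher and 5 lower, became 4 and 2 without the filter on dim probes, where more probes were adjusted for, 0 and 0 with the row as a block, and 1 and 0 under a 2-fold minimum. The methods' t-test after adjustment gave 4 and 4. Leaving out 1 array gave 4 to 7 higher and 2 to 3 lower, with fewer samples. The counts of other sarcomere genes, 2 higher and 6 lower, became 1 and 0 under a 2-fold minimum, 0 and 2 by the methods' t-test, 0 and 0 without the filter and with the row as a block, 10 lower with array weights, and 0 to 3 and 0 to 8 with 1 array left out. Over all probes, 3023 higher and 2683 lower became 757 and 460 under a 2-fold minimum, 1533 and 1250 by the methods' t-test, 1041 and 790 without the filter, 320 and 177 with the row as a block, 4092 lower with array weights, and 965 to 2932 and 726 to 2580 with 1 array left out. The median log2 fold change of the genes was 0.030 under normexp. The count of 7 paralog pairs without overlap was 7 to 9 with 1 array left out.

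Same-numbered arrays did not deviate together (correlations -0.02, -0.0176 and 0.0495 over probes), so the numbers were not taken as pairs. With the replicate number as a block, 4 of the genes were higher and 2 lower, 3 other sarcomere genes were lower, and 1714 probes were higher and 1403 lower.

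All signs that turned were of genes not called (smallest adjusted p = 0.233), and Neb, Tcap, Myoz1 and Actn2 among them were not close to 0. Second probes gave -0.14 at Actn2, 0.45 at Cmya5 and 0.24 at Pdlim5. With the row as a block, Flnc was at -0.023, Mybpc3 at 0.046, Myoz1 at 0.14, Neb at -0.37, Pdlim5 at 0.069 and Tnnc1 at 0.020. Under normexp, Cmya5 was at 0.056, Mybpc3 at 0.042, Pdlim5 at 0.0030 and Smpx at 0.030. With the percentile over detected probes, Cmya5 was at 0.0085 and Mybpc3 at 0.012, and the median over probes put Cmya5 at 0.22. Quantile normalization gave -0.039 at Flnc, 0.065 at Mybpc3 and -0.045 at Nrap, the authors' log2 values -0.049, 0.067 and -0.040, and array weights 0.029 at Mybpc3 and -0.021 at Nrap. With 1 array left out the ranges were -0.039 to 0.037 at Cmya5, -0.11 to 0.10 at Flnc, -0.043 to 0.063 at Mybpc3, -0.044 to 0.096 at Nrap, -0.18 to 0.063 at Pdlim5, -0.074 to 0.022 at Smpx and -0.0070 to 0.39 at Tcap.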
